A study of Homo sapiens with 18 samples.

Results

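The cornified envelope and squamous differentiation genes are 41 human genes taken by name from a list of envelope precursors, cross-linking enzymes, squamous regulators, desmosomal cadherins, kallikreins and clade B serpins. Each was found in the count tables by its Ensembl identifier without version, and all 41 had a row among the 60603 rows for H1650 and the 60649 rows for PC9. H1650 and PC9 are established human cell lines from lung adenocarcinoma, both EGFR-mutant. RNA was sequenced from 3 groups of 3 libraries in each line, 18 in all: the BrM derivative with control treatment (BrM control), the Tr-BrM derivative with control treatment (Tr-BrM control), and the Tr-BrM derivative with the treatment labelled S100A9-inh. All S100A9-inh libraries are of the Tr-BrM derivative, so no group shows S100A9-inh in BrM cells. What Tr stands for, how S100A9 was inhibited and whether a derivative is 1 clone or a pool is not stated in any source used here. The labels do not tie the 3 libraries of a group to separate cultures, and p-values therefore cover only how these libraries vary, which may be technical.

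The cornified envelope is the insoluble protein shell that replaces the plasma membrane of a keratinocyte at the end of its life. Transglutaminases cross-link involucrin, the small proline-rich (SPRR) proteins and the late cornified envelope (LCE) proteins onto a scaffold of the plakins envoplakin and periplakin, kallikrein proteases cut the desmosomes when the dead cells are shed, and clade B serpins restrain proteases inside the cell. The transcription factor p63 maintains stratified epithelia, and its target ZNF750 drives terminal differentiation. In the lung these genes mark squamous metaplasia and squamous carcinoma, whereas adenocarcinoma is a glandular tumour. The starts in RefSeq and GENCODE can differ, so the upstream sequences given below can begin within a gene's GENCODE bounds.

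The members lie largely in 3 clusters (GENCODE 29, GRCh38). The epidermal differentiation complex at chr1:152153595-153113515 holds 16 of them over 960 kb, from RPTN to SPRR2F, and S100A9 (chr1:153357854-153361027, forward strand) begins 244 kb beyond its end. The kallikrein cluster at chr19:50943303-51028039 holds 6 members over 85 kb, and the serpin cluster at chr18:63476761-63805376 holds 5 over 329 kb. Of the 41 members, 32 had an entry in a RefSeq table of sequences before gene starts (GRCh38.p14), in which the 250 bases upstream were searched on both strands for TGANTCA, the core of AP-1 sites, which reads alike on both strands, and for TATAAA, a core promoter box. TGANTCA was in 13 of the 32 (40.6%) and in 6.57% of all 35116 upstream sequences of that length. TATAAA was in 12 of the 32 (37.5%) and in 10.7% of all. The envelope precursors held most of them: 7 of 11 carried TGANTCA, 7 carried TATAAA and 5 carried both, and 3 of the 4 S100 fused-type genes carried both. Neither was found in the 5 kallikrein and 3 desmosomal sequences in the table. In members of chromosome 1 TATAAA lay 20 to 26 bases before the start, and TGANTCA lay 65 to 191 bases before it over all members. A match describes letters in the window and shows neither binding nor use of a site. The upstream bases of 6 genes that the results below turn on follow, 5′ to 3′ on the gene's strand, with both motifs in capitals. The first 3 genes were higher in H1650 Tr-BrM than in BrM, CASP14 was much lower, and KLK5 and KLK6 are neighbours that moved in opposite directions. Among the other called members with a sequence, SPRR1A, SPRR1B, LCE2A, KPRP, SBSN, FLG and HRNR carried a motif and rose in H1650 Tr-BrM. DSG3, PKP1 and KLK10 carried neither and fell, and LCE3E, TP63, DSC3, KLK7 and SERPINB7 carried neither and rose. A link between motif and direction was not tested. Within the 6 genes shown, direction did not follow the motifs in every case. CASP14 carries TGANTCA and fell, and KLK6, with neither motif, rose by 2.34 on the log2 scale, against 1.42 for IVL.
SPRR3 (chr1:153001499-153001748, forward strand): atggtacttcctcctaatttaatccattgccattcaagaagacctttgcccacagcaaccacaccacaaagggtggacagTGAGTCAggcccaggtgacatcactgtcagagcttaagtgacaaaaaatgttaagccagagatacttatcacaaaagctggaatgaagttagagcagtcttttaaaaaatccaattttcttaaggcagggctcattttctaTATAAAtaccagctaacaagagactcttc
IVL (chr1:152908296-152908545, forward strand): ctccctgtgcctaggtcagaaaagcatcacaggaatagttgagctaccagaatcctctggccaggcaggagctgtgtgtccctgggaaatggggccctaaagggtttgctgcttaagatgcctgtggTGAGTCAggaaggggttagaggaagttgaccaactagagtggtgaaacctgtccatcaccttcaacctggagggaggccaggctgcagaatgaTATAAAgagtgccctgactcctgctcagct
SERPINB13 (chr18:63587093-63587342, forward strand): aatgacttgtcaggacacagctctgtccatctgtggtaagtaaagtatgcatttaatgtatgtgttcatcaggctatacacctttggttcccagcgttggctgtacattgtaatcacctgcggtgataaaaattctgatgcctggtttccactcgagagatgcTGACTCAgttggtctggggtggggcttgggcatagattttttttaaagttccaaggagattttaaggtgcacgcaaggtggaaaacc
CASP14 (chr19:15049230-15049479, forward strand): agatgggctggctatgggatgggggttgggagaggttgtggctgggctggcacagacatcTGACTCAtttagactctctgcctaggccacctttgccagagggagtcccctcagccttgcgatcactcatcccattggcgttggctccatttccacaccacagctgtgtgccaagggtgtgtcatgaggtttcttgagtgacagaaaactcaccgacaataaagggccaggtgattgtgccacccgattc
KLK5 (chr19:50953039-50953288, reverse strand): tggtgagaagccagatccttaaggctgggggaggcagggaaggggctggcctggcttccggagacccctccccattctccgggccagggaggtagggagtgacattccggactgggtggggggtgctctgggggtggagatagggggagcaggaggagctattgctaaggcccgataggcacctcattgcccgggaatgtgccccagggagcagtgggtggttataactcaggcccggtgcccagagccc
KLK6 (chr19:50969592-50969841, reverse strand): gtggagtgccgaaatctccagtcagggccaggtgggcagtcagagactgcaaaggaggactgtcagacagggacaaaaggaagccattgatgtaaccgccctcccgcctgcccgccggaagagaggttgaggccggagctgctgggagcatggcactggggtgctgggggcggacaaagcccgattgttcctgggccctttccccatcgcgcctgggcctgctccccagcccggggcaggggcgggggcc

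Total counts per library ran from 17403497 to 27112362 in H1650 and from 18174516 to 21748732 in PC9. Levels are in CPM, a gene's counts relative to its library's total after TMM scaling. S100A9 followed the labels in every library: it was at 217, 206 and 199, 336, 293 and 292 and 95.2, 88.2 and 105 CPM across the BrM controls, Tr-BrM controls and S100A9-inh libraries of H1650, and at 119, 127 and 119.7, 739, 738 and 759 and 33.9, 30.4 and 35.5 CPM in PC9. Of 9 epithelial and lung markers, the epithelial genes EPCAM, CDH1, KRT8, KRT18 and KRT19 are part of a sum of 7498 to 9232 CPM in H1650 and 17671 to 22818 CPM in PC9. The lung lineage genes NKX2-1, NAPSA, SFTPB and SFTPC were at most 0.734 CPM in any group mean of either line. Sums for markers of other cell types were far lower, but single genes stood out. Means across BrM controls, Tr-BrM controls and S100A9-inh were 8.68, 63.2 and 31.7 CPM for the astrocyte marker GFAP in H1650. For the endothelial marker CDH5 in PC9 they were 23.6, 31.7 and 21.7 CPM. In H1650 the sums of 6 leukocyte, 5 fibroblast, 3 endothelial and 4 astrocyte and neuron markers were 5.24 to 5.59, 9.05 to 10.9, 0.903 to 2.73 and 5.21 to 15.7 CPM in BrM controls, 13.0 to 13.6, 37.1 to 48.1, 4.91 to 5.98 and 54.6 to 75.7 CPM in Tr-BrM controls, and 8.17 to 10.3, 36.9 to 45.3, 4.64 to 7.30 and 25.4 to 42.1 CPM with S100A9-inh. In PC9 none of these sums passed 41.2 CPM. Stratified-epithelium keratins (KRT5, KRT14, KRT1, KRT10, KRT13, KRT4, KRT6A, KRT16 and KRT17) summed to 797 to 809, 2064 to 2147 and 3458 to 3711 CPM in H1650, and 50.7 to 57.0, 283 to 302 and 65.8 to 72.2 CPM in PC9, in the same order of groups. The H1650 sum hides opposite moves: KRT17 had means of 75.4, 1445 and 2720.4 CPM and KRT6A of 91.7, 397 and 514 CPM, whereas KRT16 went from 539.8 to 168 and then 270.2 CPM and KRT5, KRT14 and KRT10 overlapped between the groups. The part of any of these marker changes in the results was not tested. In bulk RNA, fewer cells of a type and less RNA per cell cannot be told apart.

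Libraries stood apart in both lines. In PC9, replicate 1 of S100A9-inh differed from its 2 fellows by a chi-square per degree of freedom of 5.94 and 5.37, and they differed from each other by 1.998. By the same measure, replicate 2 of H1650 S100A9-inh differed from its fellows by 3.58 and 3.03, against 2.16 between them. For replicate 1 of the H1650 Tr-BrM controls the values were 2.89 and 3.05, against 2.04, and for replicate 1 of the PC9 Tr-BrM controls 2.89 and 2.62, against 1.75. In H1650, several weakly expressed members were present in replicates 1 and 2 of the Tr-BrM controls and nearly without counts in replicate 3, and the reverse held under S100A9-inh. This was noticed after the values were seen and is described in its own paragraph. S100A9 followed the label in each of these libraries.

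In H1650, squamous genes of every role were higher in the Tr-BrM controls than in the BrM controls, among them SPRR3, SERPINB13 and ZNF750, while CASP14, DSG3, KLK5 and KLK10 were lower. Of 41 members, 33 passed the filter on low counts and 8 did not. Among those tested, 23 rose and 6 fell (adjusted p under 0.05, edgeR quasi-likelihood test over all 17937 genes tested), against 63.9% of all genes called, 32.2% higher and 31.7% lower. The libraries of both groups did not overlap for 24 members, against 67.5% of all genes. The median log2 fold change of the tested members was 1.74, and that of all tested genes was -0.001. Members such as KPRP, CRCT1, SERPINB13 and ZNF750 passed the filter only through the groups in which they were high. The p-values of such members against BrM, these counts and the median are therefore descriptions. By role, 10 of 13 tested envelope precursors rose and none fell, both tested S100 fused-type genes rose, all 3 regulators rose, and the 3 desmosomal genes split into 1 risen and 2 fallen. Kallikreins split into 3 risen and 2 fallen, clade B serpins into 2 risen and 1 that did not pass, and the cross-linking, plakin and late group into 2 risen and 2 fallen.

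Under S100A9-inh, the H1650 members moved in both directions: SPRR1B, SPRR2D, KLK5, KLK10, SERPINB5 and SERPINB7 rose, while ZNF750, CASP14, EVPL, PPL, DSG3, DSC3, KLK7, KLK8 and SERPINB13 fell, and 11 of 13 tested envelope precursors did not pass the test. Against the Tr-BrM controls 6 members rose and 9 fell, 45.5% of the 33 tested, where 29.2% of all genes were called, 15.4% higher and 13.8% lower. The split over all genes depended on scaling: 2762 were higher and 2468 lower with TMM, and 2201 higher and 3193 lower by library size alone. Libraries did not overlap for 15 members, against 39.2% of all genes. The members' median was -0.20 and that of all genes -0.001. Leaving out replicate 3 of S100A9-inh raised the members that fell from 9 to 16. Against the BrM controls, the S100A9-inh libraries had 21 members risen and 7 fallen, where 63.6% of all genes were called, 32.5% higher and 31.2% lower, and 26 did not overlap, against 66.7% of all genes. The members' median was 1.55 in that comparison. Leaving out replicate 3 of both Tr-BrM groups, an alternative added after the data were seen, raised the members that fell against BrM from 7 to 11. The 3 comparisons of a line share libraries with each other, so their values are set side by side and not compared.

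**Figure D1:**
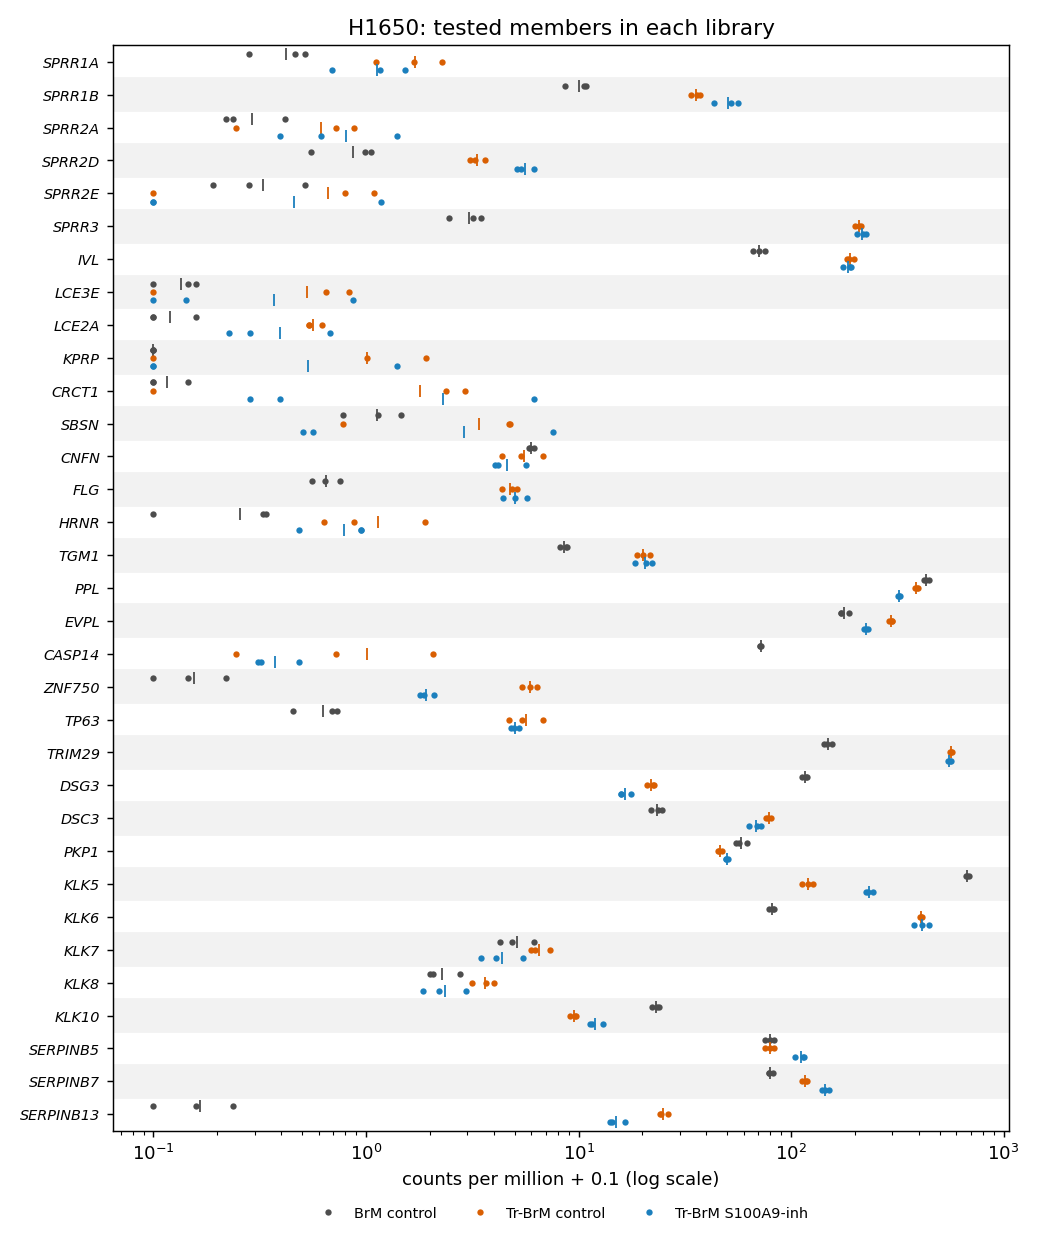
Level of the 33 tested members in each H1650 library, in CPM + 0.1 on a log axis, with 3 points per group and a short bar at the group mean. SPRR3, SERPINB13, ZNF750 and TP63 sit far higher in both Tr-BrM groups than in BrM, and CASP14, DSG3, KLK5 and KLK10 sit lower, while KPRP, CRCT1, LCE3E, SBSN and SPRR2E have points spread within both Tr-BrM groups.

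Among the envelope precursors, SPRR3, a small proline-rich protein of oral and oesophageal epithelium (ENSG00000163209), was low in BrM and high in both Tr-BrM groups. It was at 2.35, 3.09 and 3.37 CPM across the H1650 BrM controls, 214, 201 and 209 CPM across the Tr-BrM controls and 225, 204 and 219 CPM with S100A9-inh. Every library of both Tr-BrM groups lay above every BrM library, and the Tr-BrM groups overlapped each other. SPRR3 rose by 6.16 ± 0.0721 on the log2 scale (fitted log2 fold change ± SE, as in all such values below) in Tr-BrM against BrM (adjusted p = 3.64e-31), and under S100A9-inh it did not pass the test against the Tr-BrM controls (adjusted p = 0.315). Its neighbour SPRR1B was at 10.7, 10.6 and 8.52 CPM in BrM, 37.3, 35.9 and 33.8 in Tr-BrM and 52.2, 43.2 and 55.977 with S100A9-inh in the same order of groups. The groups did not overlap, and SPRR1B rose at both steps, by 1.83 ± 0.0924 and by 0.50 ± 0.0706 (adjusted p = 1.89e-16 and 2.2e-06). SPRR1A, whose reads can be split with SPRR1B, had only 4 to 43 counts per library and rose by 2.32 ± 0.402 in Tr-BrM, and both summed rose by 1.85 ± 0.0933. SPRR2D was at 0.452, 0.955 and 0.887, then 3.54, 2.9997 and 3.16, then 5.29, 5.06 and 6.10 CPM and also rose at both steps without overlap, by 2.08 ± 0.226 and 0.77 ± 0.153 (adjusted p = 3.83e-09 and 0.000254). The near-identical SPRR2 members summed rose by 1.87 ± 0.232 and by 0.60 ± 0.166, and the second call was lost without replicate 3 of the Tr-BrM controls (0.45, adjusted p = 0.0564), of S100A9-inh (0.38, adjusted p = 0.103) or of both (0.22, adjusted p = 0.398).

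IVL, which encodes involucrin, the first protein laid down in the envelope (ENSG00000163207), was at 70.4, 75.3 and 66.2 CPM across the H1650 BrM controls, 183, 198 and 186 CPM across the Tr-BrM controls and 176, 189 and 192 CPM with S100A9-inh. It rose by 1.42 ± 0.0443 (adjusted p = 2.24e-21), with both Tr-BrM groups above BrM and overlapping each other. LCE2A, a late cornified envelope gene, had 1 count in the 3 BrM libraries together and 10, 12 and 9 counts in the Tr-BrM controls, a ratio of 28.2 with a 95% counting interval from 4.70 to 1150. Intervals of this kind cover counting error only. CNFN, cornifelin, was at 5.83, 6.09 and 5.74 CPM in BrM and 6.71, 5.27 and 4.28 CPM in Tr-BrM controls, which overlap, and it did not pass the test between them. Against BrM, CNFN fell by 0.38 ± 0.149 under S100A9-inh (adjusted p = 0.0285), a call lost without replicate 1 or 2 of either group (-0.39 to -0.28, adjusted p = 0.0523 to 0.137). SPRR2F had 2 to 8 counts per group of 3 libraries and was not tested.

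The S100 fused-type genes encode large proteins of the granular layer, of which filaggrin bundles keratin. FLG was at 0.542, 0.455 and 0.651 CPM in H1650 BrM controls, 5.04, 4.24 and 4.76 CPM in Tr-BrM controls and 4.29, 5.61 and 4.95 CPM with S100A9-inh. It rose by 3.09 ± 0.217 in Tr-BrM (adjusted p = 3.69e-13), with no overlap, and differed little between the Tr-BrM groups, which overlapped. HRNR, hornerin, had 0, 5 and 4 counts in BrM and 15, 49 and 11 counts in the Tr-BrM controls, and rose by 2.83 ± 0.586 (adjusted p = 0.000121), or by 2.10 without replicate 2 of the Tr-BrM controls and 2.20 without replicate 1 of the BrM controls. CRNN had 2 counts and RPTN 2 counts over all 9 libraries. FLG, HRNR and CRNN overlap the antisense gene FLG-AS1, and without strand their reads cannot be told apart from its reads.

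The cross-linking enzyme TGM1, the membrane-bound transglutaminase of keratinocytes, was at 8.63, 8.69 and 8.10 CPM in H1650 BrM controls, 19.969, 21.5 and 18.8 CPM in Tr-BrM controls and 18.4, 22.1 and 20.7 CPM with S100A9-inh. It rose by 1.25 ± 0.0883 (adjusted p = 4.66e-13) and its Tr-BrM groups overlapped. TGM3 had no count in any of the 18 libraries. The 2 plakins parted: EVPL, envoplakin, was at 171, 187 and 172 CPM in BrM, 288, 300.01 and 297 in Tr-BrM and 220.3, 229 and 226 with S100A9-inh, and it rose by 0.74 ± 0.0350 and then fell by 0.39 ± 0.0340 (adjusted p = 4.29e-17 and 4.09e-10). PPL, periplakin, was at 432, 448 and 421 CPM in BrM, 382, 394 and 391 in Tr-BrM and 317, 324 and 325 with S100A9-inh, and fell at both steps, with log2 fold changes of -0.16 ± 0.0303 and -0.27 ± 0.0304 (adjusted p = 4.53e-05 and 4.37e-08). No library of a plakin overlapped a library of another group. EVPL shares bases with CDK3 on the opposite strand and PPL with SEC14L5.

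CASP14, a caspase of cornifying keratinocytes that acts on filaggrin, fell in H1650 Tr-BrM, as PPL did by far less, whereas TGM1 and EVPL rose. It was at 71.6, 72.2 and 71.5 CPM across the H1650 BrM controls, 0.624, 1.98 and 0.146 CPM across the Tr-BrM controls and 0.220, 0.211 and 0.383 CPM with S100A9-inh, from 12, 54 and 3 counts in the Tr-BrM controls. Every BrM library lay far above every other library, and the Tr-BrM groups overlapped. CASP14 fell by 6.13 ± 0.170 in Tr-BrM (adjusted p = 1.24e-22) and fell by 1.89 ± 0.512 under S100A9-inh (adjusted p = 0.00556). Without replicate 2 of the Tr-BrM controls, which held most of its counts there, the first value was -7.55 and the second -0.46 (adjusted p = 0.571), so the second call rests on 1 library.

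The 3 regulators were higher in H1650 Tr-BrM. ZNF750 (ENSG00000141579, chr17:82829435-82840578) had 0, 1 and 2 counts in the BrM controls, 121, 158 and 110 counts in the Tr-BrM controls and 54, 42 and 44 counts under S100A9-inh. The ratio of Tr-BrM controls to BrM controls was 118, with a counting interval from 40.0 to 574, and the fitted change passed the test (adjusted p = 2.84e-16). ZNF750 passed the filter only through the Tr-BrM groups, so this p-value is a description. Under S100A9-inh ZNF750 fell by 1.67 ± 0.167 (adjusted p = 5.97e-09), to levels that overlapped neither control group. ZNF750 lies within TBCD, a gene of the opposite strand, so reads of both could mix if strand was not used. TP63, which encodes p63, was at 0.632, 0.591 and 0.355, then 4.63, 6.69 and 5.34, then 5.14, 4.85 and 4.72 CPM and rose by 3.37 ± 0.220 in Tr-BrM (adjusted p = 7.17e-14), with overlapping Tr-BrM groups. TRIM29, a regulator expressed in basal and squamous epithelium, was at 142, 148 and 156 CPM in BrM, 573, 561 and 566 in Tr-BrM and 546, 557 and 566 with S100A9-inh. It rose by 1.93 ± 0.0337 (adjusted p = 2.71e-27), and its Tr-BrM groups overlapped, so of the 3 regulators ZNF750 alone passed the test under S100A9-inh.

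Desmosomal members moved apart in H1650. DSG3, desmoglein 3 of basal and squamous cells, was at 118, 118 and 113 CPM in BrM controls, 22.5, 22.2 and 20.8 CPM in Tr-BrM controls and 17.6, 15.8 and 15.7 CPM with S100A9-inh, and fell at both steps, with log2 fold changes of -2.41 ± 0.0502 and -0.42 ± 0.0620 (adjusted p = 1.47e-25 and 5.81e-06). Its partner DSC3, desmocollin 3, was at 21.8, 23.7 and 24.5 CPM in BrM, 76.5, 80.8 and 77.5 in Tr-BrM and 72.3, 63.5 and 68.8 with S100A9-inh, and it rose by 1.75 ± 0.0555 and then fell by 0.20 ± 0.0467 (adjusted p = 3.12e-21 and 0.00154). The plaque protein gene PKP1 was at 56.6, 62.2 and 55.2, 45.2, 45.5 and 47.3 and 49.6, 49.6 and 50.3 CPM and fell by 0.34 ± 0.0484 in Tr-BrM. For all 3 genes no library of 1 group overlapped a library of another. The desmogleins and desmocollins lie near each other on chromosome 18, and DSG1, a neighbour outside the 41 genes, went from 0.290 to 37.6 CPM in Tr-BrM, a rise of 6.97 ± 0.149 (adjusted p = 2.93e-25).

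The kallikrein neighbours KLK5 and KLK6, 5.5 kb apart and on the same strand, moved in opposite directions in H1650. KLK5, a trypsin-like protease that activates other kallikreins, was at 670.0, 666 and 685 CPM in BrM controls, 127, 113 and 121 CPM in Tr-BrM controls and 225, 243 and 229.9 CPM with S100A9-inh. The 3 groups did not overlap, with the S100A9-inh libraries between the others: KLK5 fell by 2.49 ± 0.0380 (adjusted p = 1.43e-28) and then rose by 0.95 ± 0.0380 (adjusted p = 3.36e-17). KLK6, also trypsin-like, was at 82.3, 78.4 and 82.6 CPM in BrM, 414, 404 and 409 in Tr-BrM and 380.3, 447 and 412 with S100A9-inh. It rose by 2.34 ± 0.0444 in Tr-BrM (adjusted p = 1.74e-26) and its Tr-BrM groups overlapped. KLK10, further along the cluster, was at 22.041, 23.2 and 23.8 CPM in BrM, 9.67, 9.47 and 8.99 in Tr-BrM and 11.5, 11.2 and 12.959 with S100A9-inh and followed the order of KLK5. It fell by 1.29 ± 0.0811 and then rose by 0.34 ± 0.0859 (adjusted p = 2.91e-14 and 0.00295). The rise of KLK10 was not called with replicate 3 of both Tr-BrM groups left out, as given in the last section. The chymotrypsin-like KLK7 and KLK8, neuropsin, were low, at 5.01 ± 0.989, 6.41 ± 0.722 and 4.25 ± 1.02 CPM and 2.17 ± 0.426, 3.52 ± 0.431 and 2.25 ± 0.566 CPM (SD, n = 3). Both rose in Tr-BrM, by 0.37 ± 0.154 and 0.73 ± 0.194, and fell under S100A9-inh, with log2 fold changes of -0.58 ± 0.151 and -0.67 ± 0.185. The rise of KLK7 was lost without any 1 of replicates 1 and 2 of either control group (0.24 to 0.40, adjusted p = 0.0528 to 0.224), and the change of KLK8 under S100A9-inh was lost without replicate 2 of the Tr-BrM controls (adjusted p = 0.0536) or replicate 1 of S100A9-inh (adjusted p = 0.0568). KLK11 had 2, 13 and 18 counts in the 3 groups and was not tested. KLK5, KLK6, KLK7, KLK8 and KLK10 overlap antisense genes, and KLK8 a read-through gene of its own strand, so a part of their counts could belong to those.

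Among the clade B serpins of H1650, SERPINB13, also called headpin, an inhibitor of cysteine cathepsins (ENSG00000197641), had 0, 3 and 1 counts in the BrM controls. It had 466, 717 and 493 counts in the Tr-BrM controls, or 24.2, 26.2 and 23.952 CPM, and 14.3, 14.005 and 16.5 CPM with S100A9-inh. No groups overlapped: SERPINB13 rose by 8.45 ± 0.223 (adjusted p = 4.33e-23) and fell by 0.73 ± 0.0822 under S100A9-inh (adjusted p = 4.83e-08). With so few BrM counts the first value ran from 7.84 without replicate 1 of the BrM controls to 9.64 without replicate 2. SERPINB13 passed the filter only through the Tr-BrM groups, so the p-value of its rise is a description. SERPINB7 was at 82.2, 78.4 and 78.961 CPM in BrM, 118, 112 and 118 in Tr-BrM and 151, 145 and 140.0 with S100A9-inh and rose at both steps, by 0.54 ± 0.0392 and 0.32 ± 0.0365. SERPINB5, maspin, was at 79.9, 83.1 and 75.2 and 83.3, 75.2 and 79.2 CPM in the control groups, which overlapped, and at 115, 104 and 113 CPM with S100A9-inh, where it rose by 0.49 ± 0.0446 (adjusted p = 1.04e-09). The squamous cell carcinoma antigens SERPINB3 and SERPINB4 had at most 15 counts per library and were not tested singly. Their counts summed fell by 1.59 ± 0.501 in Tr-BrM against BrM (adjusted p = 0.00691). In the Tr-BrM controls SERPINB3 had 8, 8 and 0 counts and SERPINB4 had 5, 3 and 0, with none in replicate 3, and without that library the sum fell by 1.05 (adjusted p = 0.04) and without replicate 1 by 2.24.

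Within H1650 Tr-BrM, 5 weakly expressed envelope genes did not follow the groups. SBSN, suprabasin of the upper epidermis, was at 4.63, 4.65 and 0.680 CPM in Tr-BrM control replicates 1, 2 and 3 and at 0.404, 0.464 and 7.48 CPM in S100A9-inh replicates 1, 2 and 3, against 1.04, 0.682 and 1.36 CPM in BrM. CRCT1, a cysteine-rich gene of the complex, had 54, 62 and 0 counts and then 5, 7 and 159 counts, and KPRP, keratinocyte proline-rich protein, had 35, 25 and 0 and then 0, 0 and 34. LCE3E had 14, 15 and 0 counts and then 0, 1 and 20, and SPRR2E had 19, 19 and 0 and then 0, 0 and 28. In each of these genes replicate 3 of the Tr-BrM controls was the lowest of its group and replicate 3 of S100A9-inh the highest of its group. SPRR2A (15, 17 and 3 counts, then 14, 7 and 34) and CALML5 (7, 13 and 0, then 0, 2 and 10) had the same order of replicate 3 on fewer counts. Over all 17937 genes tested in H1650, 4 genes had replicate 3 at least 2 log2 units (of CPM + 0.5) below both fellows in the Tr-BrM controls and at least 2 above both fellows under S100A9-inh: CRCT1, LCE3D, SBSN and the basal keratin KRT14. KRT14 was at 6.19, 10.6 and 1.07 CPM across the Tr-BrM controls and 1.58, 2.70 and 26.7 CPM with S100A9-inh. In the 16 libraries other than these replicates 3 no tested gene lay that far from both of its fellows. SPRR3, IVL and TRIM29 had overlapping levels in all 6 Tr-BrM libraries, as given above.

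**Figure D2:**
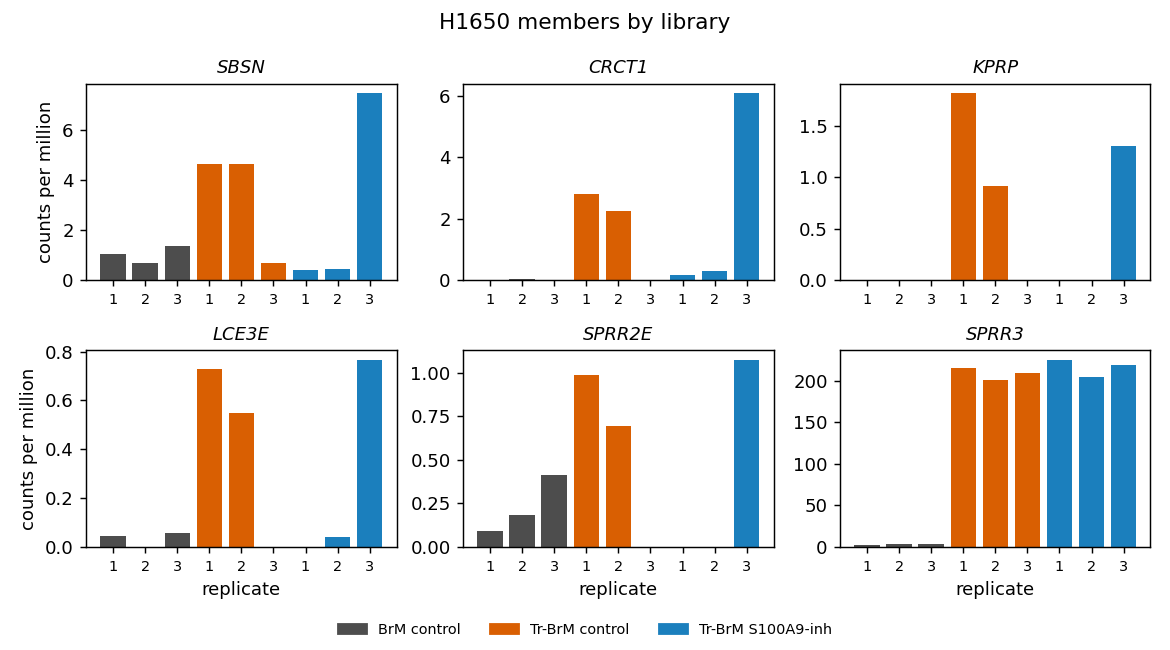
CPM of 6 members in the 9 H1650 libraries, as bars from 0 coloured by group and numbered by replicate. SBSN, CRCT1, KPRP, LCE3E and SPRR2E are low in replicate 3 of the Tr-BrM controls and in replicates 1 and 2 of S100A9-inh, whereas SPRR3 is at 201 to 225 CPM in all 6 Tr-BrM libraries.

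These 5 genes therefore have wide errors in H1650. With all libraries, SBSN, CRCT1, KPRP and LCE3E rose in Tr-BrM controls against BrM controls, at fitted changes of 1.74 ± 0.696, 6.30 ± 1.75, 7.37 ± 1.98 and 3.51 ± 1.24 (adjusted p = 0.0304, 0.00248, 0.00209 and 0.0154). Against no count in BrM, KPRP was at least 18.2-fold higher (60 counts in 3 libraries, floor of 3 counts over the group). For CRCT1, with 1 count in BrM, the ratio was 105 and its counting interval ran from 18.6 to 4200. The fitted value of CRCT1 was 8.30 without replicate 2 of the BrM controls, and that of KPRP 6.56 without replicate 1 of the Tr-BrM controls. None of the 5 passed the test between S100A9-inh and Tr-BrM controls with all libraries, with CRCT1 at 0.37 ± 0.672 and SBSN at -0.27 ± 0.555. Without replicate 3 of S100A9-inh, CRCT1 was at -2.83 (adjusted p = 0.00415) and SBSN at -2.95 (adjusted p = 3.96e-05), so 1 library set both the direction of CRCT1 and the call of SBSN. Without that library KPRP was at -7.34 (adjusted p = 0.000947), SPRR2E at -6.67 (adjusted p = 0.00192) and LCE3E at -4.11 (adjusted p = 0.00948), against -1.02, -0.63 and -0.65 with all libraries. These 3 had at most 1 count in the S100A9-inh libraries that remain, so the sizes of their fitted values depend on edgeR's prior count. The rise of SBSN in Tr-BrM controls was lost without replicate 1 or 2 of either control group (1.38 to 1.77, adjusted p = 0.0644 to 0.155), and that of LCE3E without replicate 2 of the BrM controls or replicate 1 or 2 of the Tr-BrM controls (2.94 to 3.23, adjusted p = 0.0602 to 0.0683). DESeq2 called neither LCE3E (adjusted p = 0.204) nor KPRP (adjusted p = 0.171).

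In PC9 fewer of the genes were expressed: 22 of 41 passed the filter on low counts and 19 did not. SPRR2A, SPRR2D, SPRR2E, SPRR2F, LCE3E, LCE2A, KPRP, CRCT1, CRNN, RPTN, TGM3 and SERPINB13 had at most 3 counts in all 9 libraries, and the desmosomal DSG3, DSC3 and PKP1 at most 4 in any library. Over both lines, 21 members were tested in both, 12 in H1650 alone, 1 (CALML5) in PC9 alone and 7 in neither. In the Tr-BrM controls against the BrM controls, kallikreins KLK5 and KLK10, SERPINB7, IVL, FLG, PPL, CASP14 and TP63 were higher, and SPRR1A, SPRR1B, SPRR3, KLK6 and SERPINB5 were lower. Of the 22 tested members 13 rose and 5 fell, where 59.9% of the 16169 tested genes were called, 29.6% higher and 30.3% lower. Libraries did not overlap for 18 members, against 65.7% of all genes. The members' median log2 fold change was 0.61, and that of all genes 0.001.

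In PC9 under S100A9-inh, SPRR1A, SPRR1B, SPRR3, IVL, CALML5 and CASP14 were higher than in the Tr-BrM controls, and 4 kallikreins, both tested serpins, PPL, TGM1 and CNFN were lower. Against the Tr-BrM controls 6 members rose and 9 fell, where 52.5% of all genes were called, 26.3% higher and 26.1% lower, and 15 did not overlap, against 56.3% of all genes. The members' median was -0.01. Against the BrM controls 8 rose and 4 fell, where 46.3% of all genes were called, 22.7% higher and 23.6% lower, and 14 did not overlap, against 52.9% of all genes. This last comparison depended on scaling: 11 members rose with upper quartile factors or by library size alone, and the split over all genes went from 3675 higher and 3814 lower to 4387 higher and 3182 lower with upper quartile factors. The shares of members called with TMM are 68.2% and 54.5% of the 22 tested, beside 52.5% and 46.3% of all genes.

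**Figure D3:**
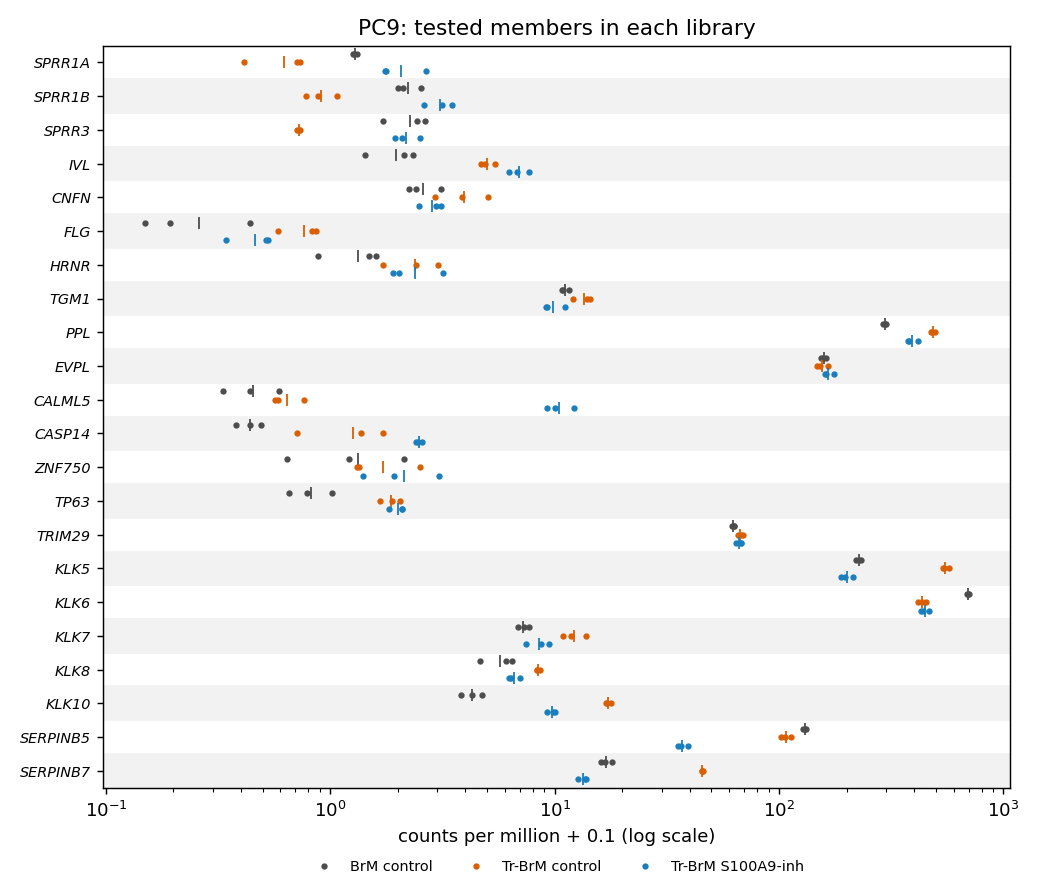
Level of the 22 tested members in each PC9 library, in CPM + 0.1 on a log axis, with 3 points per group and a short bar at the group mean. KLK5, KLK10 and SERPINB7 are highest in the Tr-BrM controls, SPRR1A, SPRR1B and SPRR3 are lowest there, and CALML5 stands above its other libraries under S100A9-inh.

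Among the PC9 envelope precursors, SPRR3 was low and its order was the reverse of that in H1650 BrM and Tr-BrM. It was at 1.62, 2.33 and 2.55 CPM across the BrM controls, 0.625, 0.632 and 0.614 CPM across the Tr-BrM controls and 2.42, 1.84 and 1.99 CPM with S100A9-inh. The Tr-BrM controls lay below every other library, and the other groups overlapped: SPRR3 fell by 1.79 ± 0.290 (adjusted p = 3.61e-06) and rose by 1.73 ± 0.292 under S100A9-inh (adjusted p = 9.62e-06). SPRR1B, at 2.01, 2.43 and 1.90 CPM in BrM, 0.677, 0.778 and 0.972 in Tr-BrM and 3.39, 3.04 and 2.52 with S100A9-inh, did the same. It fell by 1.38 ± 0.265 and then rose by 1.88 ± 0.252 (adjusted p = 4.41e-05 and 2.29e-07). For SPRR1A the log2 fold changes were -1.17 ± 0.356 and 1.90 ± 0.332, on 6 to 53 counts per library. IVL went up at both steps, from 1.32, 2.04 and 2.23 CPM to 4.79, 5.30 and 4.60 CPM and 7.60, 6.73 and 6.18 CPM, a rise of 1.39 ± 0.184 and then of 0.48 ± 0.15031 (adjusted p = 1.22e-07 and 0.00797), without overlap. CNFN was at 2.30, 2.14 and 3.02, 4.95, 2.82 and 3.78 and 2.86, 2.40 and 3.01 CPM, and its log2 fold changes of 0.62 ± 0.205 and -0.48 ± 0.202 passed the test (adjusted p = 0.00982 and 0.0457) although the groups overlapped. Both calls were lost without replicate 1 of the Tr-BrM controls, at 0.41 (adjusted p = 0.116) and -0.27 (adjusted p = 0.323), the first also without replicate 2 of the BrM controls (adjusted p = 0.0509), and the second also without replicate 3 of the Tr-BrM controls (adjusted p = 0.078) or replicate 2 of S100A9-inh (adjusted p = 0.154).

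The other late genes of PC9 were mostly low. CALML5, a calmodulin-like protein of the upper epidermis (ENSG00000178372), had 10, 7 and 5 counts in the BrM controls, 9, 10 and 13 in the Tr-BrM controls and 206, 199 and 225 under S100A9-inh. The S100A9-inh libraries stood above all others, at 9.97, 9.18 and 12.1 CPM, and CALML5 rose by 4.25 ± 0.217 against the Tr-BrM controls (adjusted p = 1.81e-16) and by 4.86 ± 0.232 against the BrM controls (adjusted p = 3.35e-17). With at most 13 counts in a control library, CALML5 passed the filter clearly only through S100A9-inh, so these p-values are descriptions. CASP14 was at 0.392, 0.340 and 0.279 CPM in BrM, 1.61, 1.26 and 0.614 in Tr-BrM and 2.32, 2.35 and 2.47 with S100A9-inh, without overlap, and rose at both steps, by 1.77 ± 0.396 and 1.03 ± 0.287 (adjusted p = 0.000283 and 0.00326). FLG had 1, 7 and 2 counts in BrM and 14, 10 and 15 in Tr-BrM controls, and rose by 1.9998 ± 0.562 (adjusted p = 0.00285), or by 3.10 without replicate 2 of the BrM controls, which held most of the counts there. HRNR was at 0.785, 1.51 and 1.39 CPM and 1.61, 2.92 and 2.30 CPM in the same groups and rose by 0.89 ± 0.284, a call lost without replicate 1 of the BrM controls (adjusted p = 0.0638) or replicate 2 of the Tr-BrM controls (adjusted p = 0.0767). PPL, the plakin, was at 299, 291 and 298 CPM in BrM, 496, 479.7 and 476 in Tr-BrM and 415, 381 and 375 with S100A9-inh, without overlap. PPL rose by 0.71 ± 0.0385 and fell by 0.31 ± 0.0381. EVPL was at 147 to 176 CPM in all 9 libraries and passed no test. TGM1 was at 10.981 ± 0.431, 13.4 ± 1.22 and 9.75 ± 1.11 CPM, with log2 fold changes of 0.28 ± 0.103 and -0.45 ± 0.105 (adjusted p = 0.018 and 0.000513). Its first call was lost without replicate 2 or 3 of the BrM controls or replicate 1 or 2 of the Tr-BrM controls (0.24 to 0.27, adjusted p = 0.0524 to 0.072).

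Of the regulators in PC9, TP63 alone was called. It was at 0.687, 0.923 and 0.557 CPM in BrM controls, 1.56, 1.95 and 1.79 CPM in Tr-BrM controls and 1.98, 1.98 and 1.72 CPM with S100A9-inh, and rose by 1.29 ± 0.289 in Tr-BrM (adjusted p = 0.000304), with the Tr-BrM groups overlapping. TRIM29 was at 61.4 to 68.8 CPM in all 9 libraries. ZNF750 was at 0.539, 1.12 and 2.04 CPM, 1.25, 1.22 and 2.40 CPM and 1.31, 2.95 and 1.83 CPM, and all groups overlapped. Leaving out replicate 3 of the BrM controls brought its rise in Tr-BrM to 0.96 (adjusted p = 0.0464).

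KLK5 and KLK6 parted in PC9 as well, each in the direction opposite to H1650. KLK5 was at 227, 232 and 219.8 CPM across the BrM controls, 571, 543 and 536 CPM across the Tr-BrM controls and 214, 189 and 197 CPM with S100A9-inh. It was highest in every Tr-BrM control library, rose by 1.2824 ± 0.0415 (adjusted p = 9.06e-22), fell by 1.46 ± 0.0418 under S100A9-inh (adjusted p = 9.73e-23) and had a log2 fold change of -0.18 ± 0.0422 against the BrM controls (adjusted p = 0.000889). KLK6 was at 703, 699 and 687 CPM in BrM, 452, 435 and 418 in Tr-BrM and 468, 431 and 440.2 with S100A9-inh. It fell by 0.68 ± 0.0369 in Tr-BrM (adjusted p = 4.28e-16), and the Tr-BrM groups overlapped. KLK10 rose and then fell as KLK5 did, at 4.66, 3.74 and 4.18 CPM, 16.8, 17.027 and 17.7 CPM and 9.92, 9.77 and 9.13 CPM, with log2 fold changes of 2.03 ± 0.111 and -0.84 ± 0.0977 (adjusted p = 4.17e-16 and 1.7e-08). The KLK10 libraries with S100A9-inh stayed above the BrM controls without overlap, whereas those of KLK5 lay below them. KLK7 and KLK8 were at 7.17 ± 0.400, 12.1 ± 1.45 and 8.42 ± 1.02 CPM and at 5.62 ± 0.944, 8.33 ± 0.181 and 6.46 ± 0.401 CPM. Both again rose in Tr-BrM and fell under S100A9-inh, with log2 fold changes of 0.75 ± 0.117 and -0.52 ± 0.115 for KLK7 and 0.57 ± 0.129 and -0.37 ± 0.126 for KLK8. The second call of KLK8 was lost without replicate 2 of S100A9-inh (adjusted p = 0.054). KLK11 had no count in the BrM controls and 9, 7 and 15 counts in the Tr-BrM controls, at least 10.9-fold higher when the BrM group is set to the 3-count floor.

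**Figure D4:**
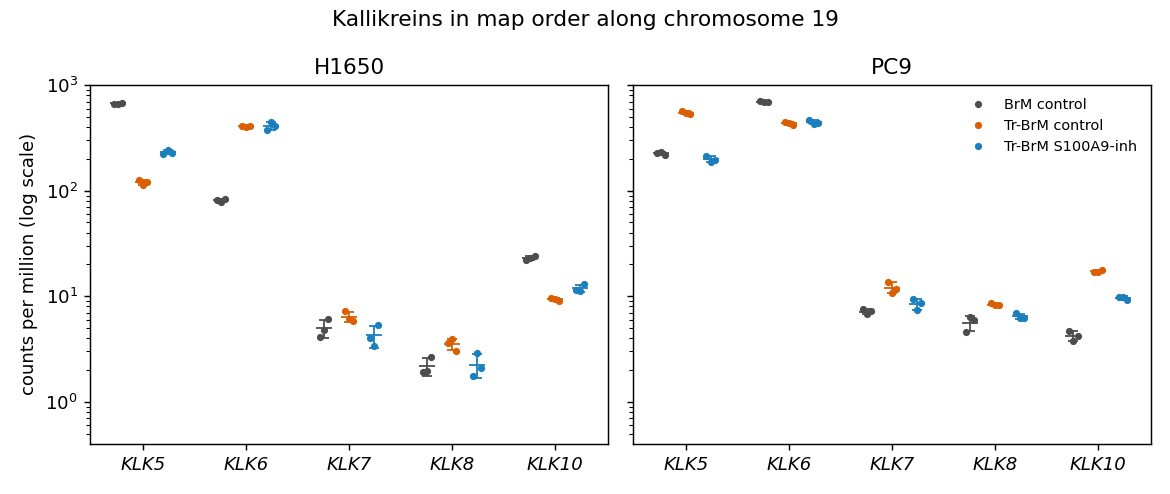
CPM, on a log axis, of 5 kallikreins in map order in the 3 groups of H1650 (left) and PC9 (right), with 3 libraries per group as points and the mean ± SD as bars. KLK5 and KLK6 take opposite directions from BrM to Tr-BrM within each line, and both are reversed between the lines. KLK10 shares the direction of KLK5 at each step in both lines. In PC9 its S100A9-inh libraries stay above BrM, whereas those of KLK5 lie below.

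Both tested clade B serpins of PC9 were lowest under S100A9-inh. SERPINB7, which is mutated in a hereditary palmoplantar keratosis, was at 16.7, 17.8 and 16.022 CPM in BrM controls, 45.9, 45.3 and 45.2 CPM in Tr-BrM controls and 12.7, 13.6 and 13.6 CPM with S100A9-inh, with no overlap. It rose by 1.43 ± 0.0699 (adjusted p = 2.83e-17) and fell by 1.77 ± 0.0725 (adjusted p = 7.9e-19), with a log2 fold change of -0.34 ± 0.0799 against the BrM controls. SERPINB5 was at 128, 131 and 132 CPM in BrM, 102, 113 and 106 in Tr-BrM and 35.5, 36.3 and 39.1 with S100A9-inh and fell at both steps, with log2 fold changes of -0.28 ± 0.0471 and -1.54 ± 0.0525 (adjusted p = 7.56e-06 and 8.02e-21). SERPINB4 had no count in the BrM controls and 14 counts in the Tr-BrM controls, at least 4.92-fold higher. SERPINB3 and SERPINB4 summed rose by 3.21 ± 0.654 in Tr-BrM (adjusted p = 9.49e-05).

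The difference between the lines was tested as an interaction in 1 model of all 18 libraries, as the PC9 log2 fold change minus that of H1650. For Tr-BrM controls against BrM controls, 34 members were tested, of which 7 were higher and 12 lower in PC9, where 54.6% of 19076 genes were called, 27.8% higher and 26.8% lower. Among the members described above, the differences were CASP14 at 7.90 ± 0.553 (adjusted p = 6.03e-16; 9.33 without replicate 2 of the H1650 Tr-BrM controls), SPRR3 at -7.96 ± 0.273 (adjusted p = 4.22e-26), KLK5 at 3.77 ± 0.0598 (adjusted p = 7.68e-38), KLK10 at 3.33 ± 0.132 and KLK6 at -3.01 ± 0.0611 (adjusted p = 4.41e-34). All 3 regulators had a lower log2 fold change in PC9, with ZNF750 at -6.33 ± 0.687, TP63 at -2.08 ± 0.387 and TRIM29 at -1.82 ± 0.0559. The ZNF750 value ran from -7.27 without replicate 3 of the H1650 BrM controls to -5.74 without replicate 1. IVL rose in both lines (1.42 ± 0.0443 and 1.39 ± 0.184) and the difference did not pass the test (adjusted p = 0.933). For S100A9-inh against Tr-BrM controls, 8 members were higher and 5 lower in PC9, where 40.4% of genes were called, 20.7% higher and 19.7% lower. KLK5 at -2.41 ± 0.0599, SERPINB7 at -2.09 ± 0.0739 and SERPINB5 at -2.02 ± 0.0711 moved down in PC9 and up in H1650 (adjusted p = 5.32e-30, 7.81e-25 and 7.24e-25). SPRR3 at 1.68 ± 0.256, CASP14 at 2.91 ± 0.570 and ZNF750 at 2.01 ± 0.383 were higher in PC9 (adjusted p = 7.61e-07, 5.06e-05 and 3.46e-05). Without replicate 2 of the H1650 Tr-BrM controls the CASP14 difference was 1.46 (adjusted p = 0.0504). For members with no counts in a group of either line, such as SERPINB13 in PC9 or CALML5 in the H1650 BrM controls, the difference between the lines has no usable error and is not given.

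**Figure D5:**
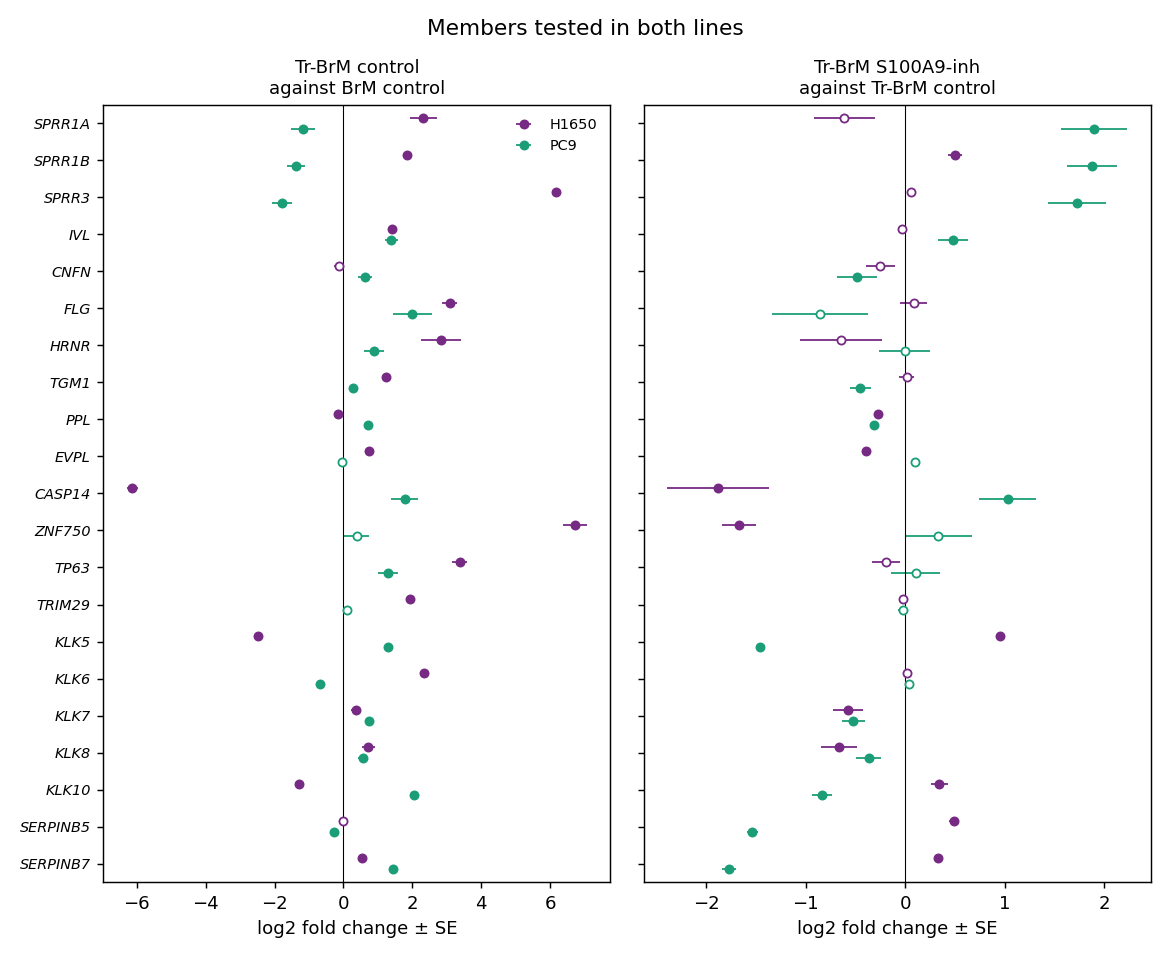
Log2 fold change ± SE of the 21 members tested in both lines, for Tr-BrM controls against BrM controls (left) and S100A9-inh against Tr-BrM controls (right), with filled points past an adjusted p of 0.05 and open points not. SPRR1A, SPRR1B, SPRR3, KLK6 and PPL, and CASP14, KLK5 and KLK10, are called in both lines with opposite signs on the left.

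Levels were compared between genes only per length, as CPM per kilobase of exon. In the H1650 BrM controls KLK5 led at 408 per kb, ahead of PPL at 56.5, KLK6 at 41.040 and IVL at 32.8. In the H1650 Tr-BrM controls the order was KLK6 at 207, SPRR3 at 144, IVL at 87.8 and KLK5 at 72.8 per kb. SPRR3 was at 2.04 per kb in the BrM controls. PC9 had the same leaders in every group, with KLK6 at 352 and KLK5 at 137 per kb in BrM controls, KLK5 at 333 and KLK6 at 220.3 in Tr-BrM controls, and KLK6 at 226 and KLK5 at 121 under S100A9-inh. PPL was next in all 3, at 38.5, 62.955 and 50.8 per kb.

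Other genes of the same programme, listed by name outside the 41, were counted in the same fits. These counts stand beside 63.9% of all genes called in Tr-BrM against BrM and 29.2% under S100A9-inh in H1650, and 59.9% and 52.5% in PC9. Of 18 tested further envelope and differentiation complex genes in H1650, 13 rose and 3 fell in Tr-BrM, and 1 rose and 6 fell under S100A9-inh. TCHHL1, a trichohyalin-like S100 fused gene, went from 0.191 to 12.8 CPM (5.98 ± 0.198) and the envelope protein gene SCEL from 14.0 to 51.6 CPM (1.87 ± 0.0686), whereas the elastase inhibitor PI3 went from 65.3 to 21.1 CPM and fell by 1.62 ± 0.0755. In PC9 the 11 tested split into 6 risen and 3 fallen, and there PI3 rose from 17.5 to 495.5 CPM in Tr-BrM (4.83 ± 0.0561) and fell to 105.5 CPM with S100A9-inh. Of scaffold and barrier lipid genes, 13 of 20 rose and 5 fell in H1650 Tr-BrM, and 4 of 14 rose and 9 fell in PC9 Tr-BrM. ABCA12, the lipid transporter of lamellar granules, rose in both, by 3.17 ± 0.0636 and 3.01 ± 0.106, and CST6, cystatin M/E, which restrains cathepsins that act on transglutaminase 3, went from 182.6 to 76.3 CPM in PC9 Tr-BrM.

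Further regulators of squamous fate split in both lines, at called shares to be read against the same 63.9% and 29.2% of all genes in H1650 and 59.9% and 52.5% in PC9. In H1650, 16 of 30 rose and 9 fell in Tr-BrM, and 4 rose and 17 fell under S100A9-inh. SOX2 went from 1.24 to 13.2 and then 5.83 CPM (log2 fold changes of 3.39 ± 0.175 and -1.19 ± 0.127), GRHL3, an activator of TGM1, from 6.63 to 43.8 CPM (2.73 ± 0.0795), and BNC1, basonuclin of basal keratinocytes, from 14.0 to 0.515 CPM. In PC9, 11 of 28 rose and 10 fell in Tr-BrM, and 13 rose and 7 fell under S100A9-inh, with the retinoic acid receptor gene RARG going from 59.6 to 109.1 CPM (0.87 ± 0.0484). Of further kallikreins, protease partners and inhibitors, 9 of 12 rose and 3 fell in H1650 Tr-BrM, and 2 of 10 rose and 6 fell in PC9 Tr-BrM. SPINK6, an inhibitor of kallikreins, had the order of KLK5 in H1650: 161.3 CPM in BrM controls, 20.8 CPM in Tr-BrM controls (-2.96 ± 0.0524) and 64.8 CPM with S100A9-inh (1.65 ± 0.0556). F2RL1, the receptor that KLK5 can cleave, went from 105.1 to 30.7 CPM in H1650 Tr-BrM and from 160.9 to 326.7 CPM in PC9 Tr-BrM, where SLPI, an inhibitor of serine proteases, went from 83.8 to 359.3 CPM. Of further clade B serpins, 4 of 5 rose and 1 fell in H1650 Tr-BrM and 1 of 3 rose and 1 fell in PC9 Tr-BrM, with SERPINB9 rising in H1650 by 2.26 ± 0.104.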

How the data were processed

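The samples are poly-A RNA libraries of both lines, TruSeq-compatible per the labels' protocols. Each line has its own table, in which the authors deposited whole-number read counts by gene, not normalized, for 9 libraries. STAR, GRCh38, R 4.0.1 and DESeq2 1.28.1 are named per the submitters' processing notes. For the STAR version, the counting tool, the annotation and the use of strand the answer is not given in the sources used here. Gene names and positions come from GENCODE 29.

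The tests used edgeR 4.0.16 (R 4.3.3) separately in H1650 and PC9: filterByExpr by group, TMM scaling and the quasi-likelihood test on the 9 libraries of a line. Adjustment was by Benjamini-Hochberg over every gene tested, with a threshold of 0.05. Differences between lines were contrasts in 1 fit of all 18 libraries. Alternatives were other scalings, DESeq2 1.42.0, other filters, leaving out single libraries, fits of only the groups compared, and summed near-identical copies. The fitting was tested on simulated data. Total counts of 17403497 to 27112362 per library set the precision, and intervals (95%) and the floor of 3 counts over a group cover counting error only. All 41 members are accounted for. From each further list, up to 4 genes per comparison could be named, those with the largest change among the called genes with at least 5 CPM in the higher group. The members and lists were chosen with earlier results of these data known.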

Additional observations from a re-analysis of the deposited data

Results flagged for a closer look

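The log2 fold change differed between the lines in an interaction test over all 18 libraries (edgeR quasi-likelihood test, adjusted p under 0.05) for 19 of 34 tested members (55.9%) in the Tr-BrM controls against the BrM controls, where 54.6% of all genes differed. Values are the log2 fold change in PC9 minus that in H1650. It was higher in PC9 for CNFN at 0.75, PPL at 0.87, CASP14 at 7.90, KLK5 at 3.77, KLK10 at 3.33, SERPINB3 at 3.76 and SERPINB7 at 0.89. It was lower in PC9 for SPRR1A at -3.50, SPRR1B at -3.21, SPRR3 at -7.96, HRNR at -1.95, TGM1 at -0.96, EVPL at -0.77, ZNF750 at -6.33, TP63 at -2.08, TRIM29 at -1.82, KLK6 at -3.01 and SERPINB5 at -0.27. The other of the 19, CALML5, had no count in the H1650 BrM controls, so its difference has no finite value and is not given. SERPINB3 passed the filter on low counts in neither line, and its value rests on few counts. The CNFN call was lost without replicate 1 of the PC9 Tr-BrM controls (0.53, adjusted p = 0.0973). The HRNR call was lost without replicate 2 of the H1650 Tr-BrM controls (-1.20, adjusted p = 0.172) or replicate 1 of the H1650 BrM controls (-1.32, adjusted p = 0.113). CASP14 was at 9.33 without replicate 2 of the H1650 Tr-BrM controls.

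For S100A9-inh against the Tr-BrM controls, 13 of 34 tested members (38.2%) differed between the lines in the same test, where 40.4% of all genes did. The value was higher in PC9 for SPRR1A at 2.52, SPRR1B at 1.38, SPRR3 at 1.68, IVL at 0.51, EVPL at 0.50, CALML5 at 5.16, CASP14 at 2.91 and ZNF750 at 2.01. It was lower in PC9 for TGM1 at -0.46, KLK5 at -2.41, KLK10 at -1.17, SERPINB5 at -2.02 and SERPINB7 at -2.09. CALML5 did not pass the filter on low counts in H1650, and its value rests on few counts there. CASP14 was at 1.46 (adjusted p = 0.0504) without replicate 2 of the H1650 Tr-BrM controls. The 2 comparisons share the Tr-BrM controls.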

How the results depend on the processing

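Over the alternatives run, the numbers of members called kept within 1.5 times the reported value except for members that fell in H1650. Against the Tr-BrM controls, S100A9-inh had 9 such members, 7 to 16 when single libraries were left out and 17 with replicate 3 of both H1650 Tr-BrM groups left out, an alternative chosen after seeing the data. Against the BrM controls the count went from 7 to 11 under the latter. Fewer libraries entered these fits, and otherwise the cause was not tested. Directions turned for weakly expressed H1650 members. For S100A9-inh against the Tr-BrM controls, CRCT1 went from 0.37 to -3.39 with both of these left out (adjusted p = 4.04e-07) and ranged from -2.83 to 0.93 with single libraries left out, and SBSN ranged from -2.95 to 0.27. For S100A9-inh against the BrM controls, the values with both left out and the single-library ranges were -5.32 and -5.30 to 1.38 for SPRR2E, -1.21 and -1.21 to 2.01 for SBSN, and -0.61 and -0.61 to 3.46 for LCE3E. KLK10 lost its rise under S100A9-inh in H1650 with both left out (adjusted p = 0.091). In PC9, ZNF750 ranged from -0.0073 to 0.96 in Tr-BrM controls against BrM controls. The values of summed near-identical copies with libraries left out were also chosen after seeing the data. Of the members' values, 169 were followed and 25 that passed the test in no setting were not. Depth limits the members with a few counts per library, and 3 libraries a group limit all tests.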
